A study of Mus musculus with 18 samples.

Results

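Podocytes are the epithelial cells that wrap the capillaries of the kidney's filter, the glomerulus, and 8 genes known for their role in these cells were followed through kidney cortex of lupus-prone mice. The genes were Nphs1, Podxl, Synpo, Wt1, Ptpro, Cd2ap, Actn4 and Magi2, chosen by symbol as well-known podocyte and slit diaphragm genes, and all 8 were present among the 15035 genes of the expression table. The study profiled kidney cortex by RNA sequencing in 6 groups of 3 mice each. Groups named Multi-target, Prednisone, FK506 and MMF were MRL/lpr mice given those treatments, the Vehicle group was MRL/lpr mice given vehicle alone, and the Healthy group was MRL/MpJ wild type mice given vehicle. MRL/lpr mice carry a mutated Fas gene and develop lymphoproliferation with a lupus-like nephritis on the MRL background that the wild type controls share. Prednisone activates the glucocorticoid receptor, FK506 (tacrolimus) inhibits the phosphatase calcineurin, and MMF (mycophenolate mofetil) blocks guanine nucleotide synthesis. The labels give no dose, age or sex and do not say which drugs the multi-target treatment combined. Titles of the MRL/lpr libraries share a code before the mouse number that those of the healthy mice lack. Any batch that code stands for and the strain therefore cannot be told apart.

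Podocytes extend interlocking foot processes that are joined by the slit diaphragm, a thin junction through which plasma is filtered. Nephrin, the product of Nphs1, spans the slit, adaptor proteins tie it to actin inside the foot process, and loss or rearrangement of these parts goes with leakage of protein into urine. Calcineurin inhibitors are thought to protect podocytes in part by preserving the actin-binding protein synaptopodin, encoded by Synpo, which calcineurin can dephosphorylate and so expose to degradation. That mechanism acts on the protein, whereas the values here measure RNA.

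Values are on the log2 scale as deposited, 1 per gene and library, so that a difference of 1 is a doubling. The libraries held between 28939845 and 41066953 reads over the 15035 genes, as recovered from the values, and the 8 genes stood at between 214 reads (the lowest Synpo value) and 21035 reads (the highest Actn4 value) per library. For Synpo, Ptpro and Magi2 the read figures are equivalents, since their values were not whole numbers of reads. Transcripts of other tissues stood out in 2 libraries. A list of 5 adipocyte genes averaged 11.48 in Vehicle mouse 17 against 4.42 to 6.90 in the other libraries, and a list of 5 adrenal genes averaged 11.67 in FK506 mouse 12 against 4.88 to 6.35 elsewhere. Leukocyte genes also differed between groups. A list of 9 macrophage markers averaged 10.97 in Vehicle mice (range 10.56 to 11.48) and 8.18 in Healthy mice (7.98 to 8.38), with 8 of the 9 markers passing the test as higher in Vehicle mice and none of them near 0. The test called 15.7% of all genes as higher there. The list averaged 9.71 in Multi-target, 10.36 in Prednisone, 9.73 in FK506 and 9.30 in MMF mice. Among 7 proximal tubule genes 2 passed as lower in Vehicle than in Healthy mice, against 1016 of all 15035 genes. The mean of the 7 ran from 14 to 15.17 in Vehicle and from 15.65 to 15.88 in Healthy mice. Vehicle mouse 36 was the one at 14, and without it the mean difference was -0.63 instead of -1.01. None of the 7 then passed, where 336 of all 15035 genes were called lower. In whole tissue, fewer cells of a type and less RNA per cell cannot be told apart, and the part these shifts in makeup played in the values below was not tested. A list of 17 other podocyte markers was expressed in every library, with a library mean of at least 9.38.

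**Figure D1:**
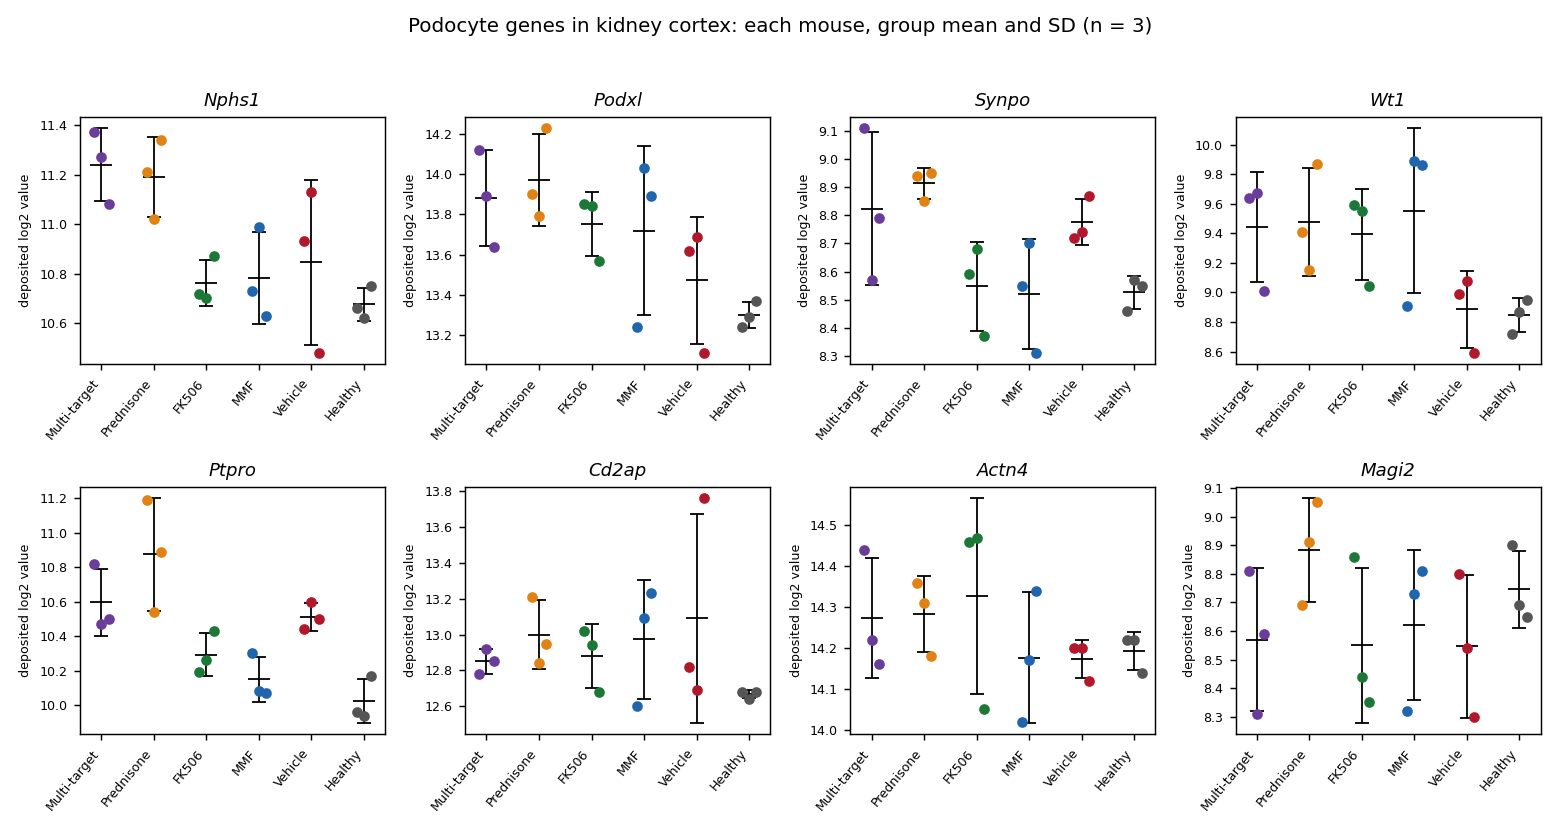
Deposited log2 value of each podocyte gene (vertical axis, scaled per gene) in each mouse (points), with the group mean and SD (bars, n = 3), for the 6 groups along the horizontal axis. Ptpro lies between 10.44 and 10.60 in the 3 Vehicle mice, above the 3 Healthy mice at 9.94 to 10.17, and Cd2ap stands at 13.76 in Vehicle mouse 36.

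Untreated nephritis was compared with health first. Of the 8 genes, 1 passed the test and none was lower: Ptpro was higher in Vehicle than in Healthy mice. The other 7 differences lay between -0.20 and 0.43 on the log2 scale. The test was limma's moderated test, its p adjusted by Benjamini-Hochberg over all 15035 genes with a threshold of 0.05. It called 22.4% of all genes in this comparison, and 15.7% as higher. The share of podocyte genes called was therefore no higher than the background. Between Vehicle and Healthy mice 3 of the 8 genes (Synpo, Ptpro and Cd2ap) did not overlap, against 52.4% of all genes. The median difference of the 8 genes was 0.17, against 0.09 over all genes. Rescaling the libraries to a common distribution or a common median moved the median gene of this comparison by -0.19, and under one or both of those scalings the differences of Nphs1, Podxl, Synpo, Wt1 and Actn4 changed sign.

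Each drug arm was set against the same Vehicle mice, so these 4 comparisons share their controls. None of the 8 genes passed limma's test in any of them. In MMF minus Vehicle 1.58% of all genes passed and 2 of the 8 genes had an unadjusted p under 0.05, against 29.9% of all genes. These were Wt1 with a difference of 0.67 and Ptpro with one of -0.36. In FK506 minus Vehicle the test passed 0% of all genes, and 0 of the 8 genes had an unadjusted p under 0.05, against 19.9% of all genes. In Prednisone minus Vehicle it also passed 0% of all genes, while 4 of the 8 genes had an unadjusted p under 0.05, against 3.15% of all genes. These were Nphs1, Podxl, Wt1 and Ptpro, all higher in Prednisone mice and each with an adjusted p of 0.943 in limma. In Multi-target minus Vehicle 0% of all genes passed, and 1 of the 8 genes, Nphs1, had an unadjusted p under 0.05, against 15.6% of all genes. Of the Vehicle mice, mouse 36 was the lowest in Nphs1 (10.48), Podxl (13.11) and Wt1 (8.59). In its library 5 of the 8 genes were among their 3 lowest values of the 18 libraries. That number was also 5 in Healthy mouse 1, and it was 4 in Healthy mouse 2 and in MMF mouse 1. With mouse 36 the lowest Vehicle mouse in them, the higher Nphs1, Podxl and Wt1 of Prednisone mice rest in part on it. So does the higher Nphs1 of Multi-target mice. The median of the 8 differences was 0.09 for Multi-target, 0.34 for Prednisone, -0.04 for FK506 and -0.03 for MMF, against -0.02, 0.03, -0.01 and -0.05 over all genes.

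Groups that did not overlap were counted as well. In Prednisone minus Vehicle they were 2 of the 8 genes, Podxl and Wt1, both higher in Prednisone mice, against 6.71% of all genes. In FK506 minus Vehicle and in MMF minus Vehicle they were 2 of the 8 genes each, Synpo and Ptpro, lower in the treated mice, against 22.0% and 17.7% of all genes. In Multi-target minus Vehicle there was none, against 17.1% of all genes.

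Set against Healthy mice, which again serve as shared controls, the arms gave different numbers of calls. Prednisone mice were higher in 3 of the 8 genes, Nphs1, Podxl and Ptpro, where limma called 16.7% of all genes and 13.4% as higher. Multi-target mice were higher in 2 of the 8, Nphs1 and Ptpro, where it called 6.98% of all genes and 5.33% as higher. In FK506 mice none of the 8 passed, with 7.27% of all genes called, and 1 had an unadjusted p under 0.05, against 25.3% of all genes. In MMF mice none passed, with 15.9% of all genes called, and 1 had an unadjusted p under 0.05, against 35.3%. The groups did not overlap for 6 of the 8 genes in both Multi-target and Prednisone minus Healthy, against 46.6% and 53.1% of all genes. For FK506 they did not overlap for 4 of the 8, against 46.2%, and for MMF for 0 of the 8, against 39.9%. The medians of the 8 differences were 0.43 for Multi-target, 0.45 for Prednisone, 0.18 for FK506 and 0.12 for MMF, against 0.08, 0.13, 0.08 and 0.05 over all genes. The rescalings moved the median gene by -0.12 in Multi-target, -0.20 in Prednisone and -0.12 in FK506 minus Healthy, and by 0.12 in MMF minus Vehicle. A call in one arm and not in another is no test of a difference between arms, and those tests follow with the genes.

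**Figure D2:**
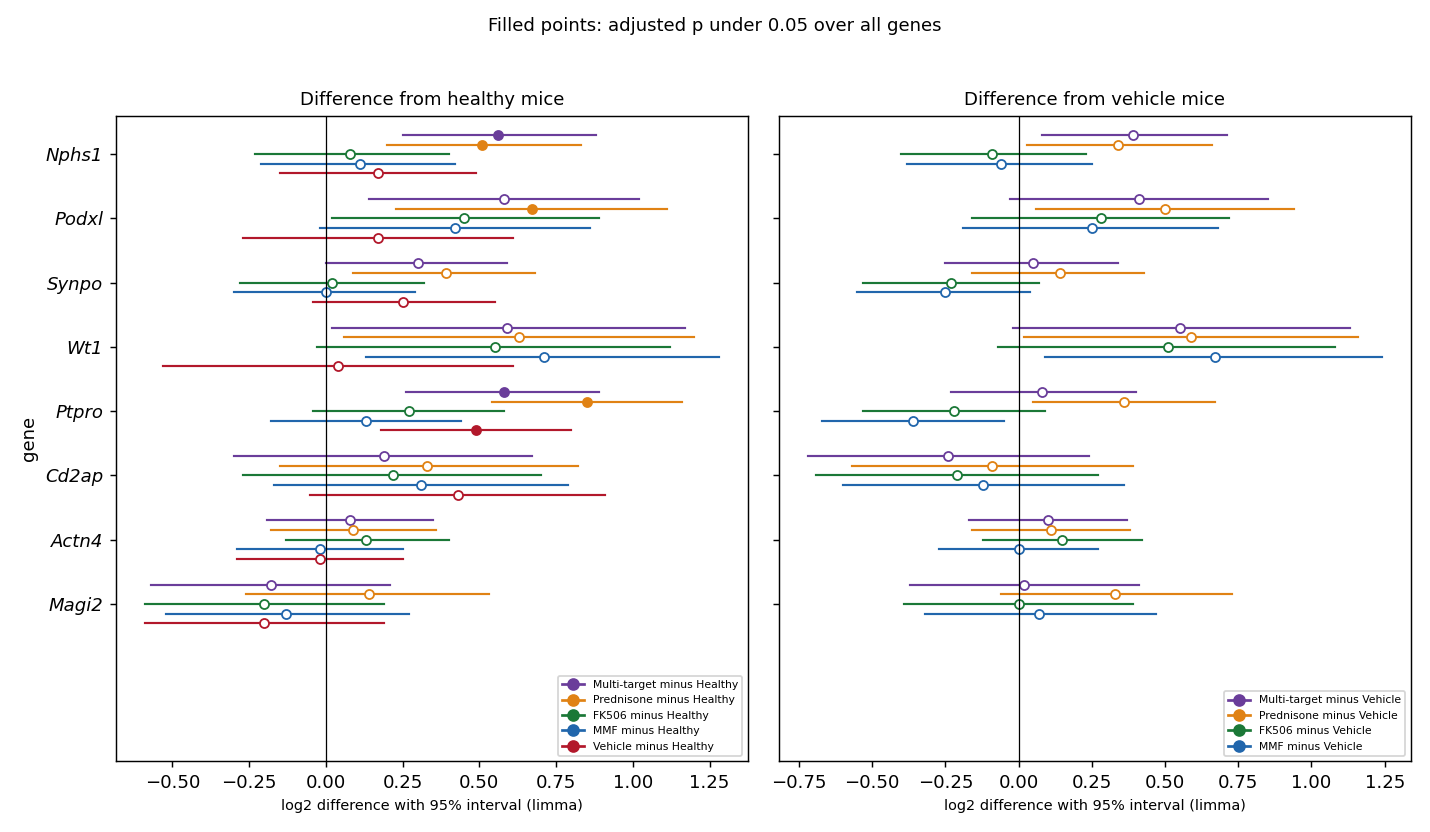
Log2 difference of each podocyte gene with its 95% interval from limma (horizontal axis), from Healthy mice on the left and from Vehicle mice on the right, with 1 colour per group and filled points where the adjusted p over all genes is under 0.05. Filled points occur in the left panel for Ptpro in 3 groups, Nphs1 in 2 and Podxl in 1, and none occurs in the right panel.

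Among membrane proteins of the foot process, Ptpro had the most calls. It encodes a receptor-type tyrosine phosphatase of the apical podocyte surface, also called GLEPP1. The gene lies on chromosome 6 (137252319 to 137463233, plus strand, GRCm38). Its promoter is shown because this gene was called in the most comparisons. The 250 bases before the RefSeq start of transcription (GRCm38.p6, chr6:137252049-137252298, plus strand, reference strain and not MRL) read 5′ to 3′, with capitals for matches to GNGNGGGNG, a G-rich motif of the kind bound by WT1 and EGR proteins:
Ptpro promoter: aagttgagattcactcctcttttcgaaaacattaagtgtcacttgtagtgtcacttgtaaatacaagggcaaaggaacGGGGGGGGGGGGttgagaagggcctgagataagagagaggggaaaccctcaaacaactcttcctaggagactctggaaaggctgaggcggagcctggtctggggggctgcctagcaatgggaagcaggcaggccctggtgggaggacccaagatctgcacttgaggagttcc
The window held 4 overlapping matches to GNGNGGGNG, all within 1 run of G, and 3 matches to CANNTG, with both strands searched. It held 0 matches to TAATTA. Of the 32851 promoter windows of this length in the RefSeq table, 35.8% held GNGNGGGNG, 66.2% CANNTG and 4.84% TAATTA. A match is a run of letters and was not tested for binding.

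In Prednisone mice 23, 29 and 35 Ptpro was at 11.19, 10.54 and 10.89, and in Multi-target mice 6, 18 and 39 at 10.82, 10.47 and 10.50. It was at 10.19, 10.26 and 10.43 in FK506 mice 3, 12 and 24 and at 10.30, 10.08 and 10.07 in MMF mice 1, 14 and 27. In Vehicle mice 7, 17 and 36 it was at 10.44, 10.60 and 10.50, and in Healthy mice 1, 2 and 3 at 9.96, 9.94 and 10.17. All Prednisone, Multi-target, FK506 and Vehicle mice lay above all Healthy mice, and all FK506 and MMF mice lay below all Vehicle mice. The macrophage list averaged 11.33 in Prednisone mouse 23, where Ptpro was highest. It averaged 9.28 and 8.59 in MMF mice 14 and 27, where Ptpro was lowest among MRL/lpr mice. In Vehicle mouse 36 the list was at its highest, 11.48, with Ptpro at 10.50. The part of leukocyte RNA in the Ptpro values was not tested. Ptpro was higher in Prednisone than in Healthy mice by 0.85 ± 0.15 (SE, 1.80-fold; limma adjusted p = 0.00188). That call held in all 14 alternative analyses, with differences of 0.65 to 1.02 and adjusted p between 0.000394 and 0.0164. The Multi-target minus Healthy difference was 0.58 ± 0.15 (SE; limma adjusted p = 0.0319) and the Vehicle minus Healthy difference 0.49 ± 0.15 (SE, 1.41-fold; limma adjusted p = 0.0274).

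The last 2 calls depended on single mice. The call for Vehicle mice held in 7 of 14 alternatives. It was lost without Vehicle mouse 17 (0.45, adjusted p = 0.0685), Vehicle mouse 36 (0.50, 0.0805), Healthy mouse 1 (0.46, 0.0920) or Healthy mouse 2 (0.45, 0.0931). Both rescalings ended it too, with adjusted p of 0.133 and 0.127. The call for Multi-target mice held in 6 of 14 alternatives and was lost without Multi-target mouse 6 (0.46, 0.131), Multi-target mouse 18 (0.64, 0.0625), or Healthy mouse 1 (0.54, 0.119), 2 (0.53, 0.118) or 3 (0.65, 0.0579). Rescaling gave 0.46 and 0.45 there, with adjusted p of 0.0870 and 0.0655.

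Between drugs, Ptpro had an FK506 minus Prednisone difference of -0.58 (95% interval -0.89 to -0.27), with an unadjusted p of 0.00127 and an adjusted p of 0.982 in limma. Prednisone minus MMF was 0.72 (95% interval 0.41 to 1.03; limma adjusted p = 0.170). Neither difference passed, and limma called 0 of 15035 genes in either comparison, while 2.83% and 13.7% of all genes had an unadjusted p under 0.05. Without MMF mouse 1 the Prednisone minus MMF difference was 0.80, with an adjusted p of 0.00761. The 95% interval of FK506 minus Vehicle was -0.53 to 0.09 and that of MMF minus Vehicle -0.67 to -0.05.

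Nphs1 encodes nephrin, the adhesion protein that bridges the slit. It lies on chromosome 7 (30458315 to 30487223, plus strand). It was at 11.37, 11.27 and 11.08 in Multi-target mice and at 11.21, 11.02 and 11.34 in Prednisone mice. In FK506 mice it was at 10.72, 10.70 and 10.87 and in MMF mice at 10.73, 10.99 and 10.63. In Vehicle mice it was at 10.93, 11.13 and 10.48 and in Healthy mice at 10.66, 10.62 and 10.75. All 6 Multi-target and Prednisone mice were above all FK506, MMF and Healthy mice, and Vehicle mouse 17 reached into their range. Relative to Healthy mice Nphs1 was higher in Multi-target mice by 0.56 ± 0.15 (SE, 1.48-fold; limma adjusted p = 0.0359) and in Prednisone mice by 0.51 ± 0.15 (SE, 1.43-fold; limma adjusted p = 0.0298). Relative to Vehicle mice the differences were 0.39 in Multi-target (95% interval 0.08 to 0.71; limma adjusted p = 0.242) and 0.34 in Prednisone mice (95% interval 0.03 to 0.66; limma adjusted p = 0.943).

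Both calls held in 7 of 14 alternatives. The Multi-target call was lost without Multi-target mouse 6 (0.50, adjusted p = 0.131) or 18 (0.55, 0.127), or Healthy mouse 1 (0.56, 0.118), 2 (0.53, 0.124) or 3 (0.60, 0.0834), and under both rescalings (0.48 and 0.44). The Prednisone call was lost without Prednisone mouse 23 (0.50, adjusted p = 0.0933) or 35 (0.44, 0.122), or Healthy mouse 1 (0.51, 0.0885), 2 (0.48, 0.0972) or 3 (0.55, 0.0617), and under both rescalings (0.38 and 0.31).

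The multi-target arm was compared with each single drug to see where the combination stood. Nphs1 was 0.48 higher in Multi-target than in FK506 mice (95% interval 0.16 to 0.79; limma adjusted p = 1) and 0.46 higher than in MMF mice (limma adjusted p = 0.605). Multi-target minus Prednisone was 0.05 ± 0.15 (SE). None of the 8 genes passed in these comparisons, where limma called 0 of 15035 genes and 0.406%, 7.49% and 3.35% of all genes had an unadjusted p under 0.05. Of the 8 genes, 1, 3 and 0 were under that p. Nphs1 and Ptpro did not overlap between Multi-target and FK506 mice, nor between Multi-target and MMF mice, against 4.62% and 6.50% of all genes. Between Multi-target and Prednisone mice no gene of the 8 was apart, against 10.8% of all genes. Ptpro was 0.30 higher in Multi-target than in FK506 mice and 0.45 higher than in MMF mice. Annotated antisense and pseudogene exons on the opposite strand cover 9.0% and 2.8% of the exon bases of Nphs1, and whether reads were counted by strand is not given in the sources used here.

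Podxl encodes podocalyxin, the negatively charged sialomucin of the podocyte surface, which endothelial cells also make. It lies on chromosome 6 (31519488 to 31563981, minus strand). It was at 14.12, 13.89 and 13.64 in Multi-target mice and at 13.90, 13.79 and 14.23 in Prednisone mice. In FK506 mice it was at 13.85, 13.84 and 13.57 and in MMF mice at 13.24, 14.03 and 13.89. In Vehicle mice it was at 13.62, 13.69 and 13.11 and in Healthy mice at 13.24, 13.29 and 13.37. All Multi-target, Prednisone and FK506 mice were above all Healthy mice, whereas MMF mouse 1 lay at the Healthy level. Podxl was higher in Prednisone than in Healthy mice by 0.67 ± 0.21 (SE, 1.59-fold; limma adjusted p = 0.0374).

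The Podxl call held in 7 of 14 alternatives. It was lost without Prednisone mouse 23 (0.71, adjusted p = 0.0890) or 35 (0.55, 0.155), or Healthy mouse 1 (0.64, 0.114), 2 (0.67, 0.0994) or 3 (0.71, 0.0798). Centring each library on its median gave 0.47, with an adjusted p of 0.133. Leaving out both libraries with other-tissue transcripts gave 0.67, with an adjusted p of 0.0504. The difference from Healthy mice was 0.58 in Multi-target (limma adjusted p = 0.0986), 0.45 in FK506 (0.183) and 0.42 in MMF mice (0.160), all short of the threshold. Prednisone minus Vehicle was 0.50 (95% interval 0.06 to 0.94; limma adjusted p = 0.943). A list of 7 glomerular endothelial genes averaged 11.10 in Multi-target, 11.22 in Prednisone, 11.09 in FK506, 11.14 in MMF, 11.09 in Vehicle and 11.03 in Healthy mice. By mouse it was at 10.84 in MMF mouse 1 and 11.44 in MMF mouse 14, where Podxl was at 13.24 and 14.03. In Vehicle mouse 36 it was at 10.88, with Podxl at 13.11. Multi-target mouse 18 went the other way, with the list at 10.86 and Podxl at 13.89. The part of endothelial RNA in the Podxl values was not tested.

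Wt1 encodes the transcription factor that keeps podocytes differentiated and that in adult kidney is largely confined to podocytes and parietal epithelium. It lies on chromosome 2 (105126529 to 105173616, plus strand). It was at 9.64, 9.67 and 9.01 in Multi-target mice and at 9.41, 9.15 and 9.87 in Prednisone mice. In FK506 mice it was at 9.59, 9.55 and 9.04 and in MMF mice at 8.91, 9.89 and 9.86. In Vehicle mice it was at 8.99, 9.08 and 8.59 and in Healthy mice at 8.72, 8.87 and 8.95. Within each treated arm Wt1 spanned a wide range, and MMF mouse 1, Multi-target mouse 39 and FK506 mouse 24 lay within the Vehicle range. Wt1 passed in no comparison. The mean of the 4 drug arms was 0.58 ± 0.21 (SE) above Vehicle mice, with an unadjusted p of 0.0156 and an adjusted p of 0.127 in limma. That comparison called 0 of 15035 genes, while 24.4% of all genes and 2 of the 8, Podxl and Wt1, had an unadjusted p under 0.05. Vehicle minus Healthy was 0.04 ± 0.27 (SE). Without MMF mouse 1 the MMF minus Vehicle difference was 0.99, with an adjusted p of 0.00808, against 0.67 and 0.123 with it. Likewise the MMF minus Healthy difference was 1.03 without that mouse, with an adjusted p of 0.00565, against 0.71 and 0.0792.

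Synpo is the gene on which the proposed podocyte effect of calcineurin inhibition turns. It lies on chromosome 18 (60593973 to 60660142, minus strand). It was at 8.59, 8.68 and 8.37 in FK506 mice, against 8.72, 8.74 and 8.87 in Vehicle mice. Every FK506 mouse was below every Vehicle mouse, and FK506 minus Vehicle was -0.23 ± 0.14 (SE, 95% interval -0.53 to 0.07; limma adjusted p = 0.358). Synpo was at 9.11, 8.57 and 8.79 in Multi-target mice, at 8.94, 8.85 and 8.95 in Prednisone mice and at 8.55, 8.70 and 8.31 in MMF mice. Healthy mice were at 8.46, 8.57 and 8.55. Relative to Vehicle mice the difference was 0.05 in Multi-target, 0.14 in Prednisone and -0.25 in MMF mice, none of which passed. The 3 Vehicle mice lay above the 3 Healthy mice, by 0.25 ± 0.14 (SE; limma adjusted p = 0.200), and quantile normalization turned that difference to -0.04. The drug differences depended on scaling too. Quantile normalization gave -0.09 for FK506 and -0.04 for MMF minus Vehicle. Centring each library on its median gave -0.16 and -0.14.

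In Prednisone mice Synpo lay above all FK506 and all MMF mice, without passing the test. FK506 minus Prednisone was -0.37 (95% interval -0.66 to -0.07; limma adjusted p = 0.982) and Prednisone minus MMF was 0.39 (95% interval 0.10 to 0.69; limma adjusted p = 0.258). FK506 minus MMF was 0.02 (95% interval -0.27 to 0.32; limma adjusted p = 0.989). For Nphs1 these differences were -0.43 and 0.41. Nphs1, Synpo and Ptpro were the 3 of the 8 genes whose groups did not overlap in FK506 minus Prednisone and in Prednisone minus MMF, against 9.88% and 11.6% of all genes. In both comparisons they were also the 3 genes with an unadjusted p under 0.05. In FK506 minus MMF none of the 8 passed, had an unadjusted p under 0.05 or had groups apart, against 0, 5.65% and 6.82% of all genes. The 95% interval of Multi-target minus FK506 for Synpo was -0.02 to 0.57.

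Genes linked to synaptopodin or to calcineurin were measured too. Of 16 such genes (the Synpo and calcineurin list), 2 passed as higher and 1 as lower in Vehicle than in Healthy mice, against the 22.4% of all genes called there. These were Camk2d (0.57) and Camk2b (-0.69), calmodulin-dependent kinase subunits, and Fkbp1a (0.66), which encodes the protein through which FK506 binds calcineurin. Without Vehicle mouse 36 none of the 3 passed. None of the 16 passed against Vehicle in the Multi-target, Prednisone, FK506 or MMF mice. The calcineurin subunit genes differed between FK506 and Vehicle mice by -0.01 for Ppp3ca, 0.10 for Ppp3cb, 0.36 for Ppp3cc and 0.15 for Ppp3r1. Rcan1, a calcineurin target and regulator, had a difference of -1.05 ± 0.35 (SE) in FK506 mice, with an adjusted p of 0.171, and of -1.38 ± 0.35 (SE) in MMF mice, with an adjusted p of 0.0535, both in limma against Vehicle mice. It was also below Vehicle in Prednisone (-0.83, adjusted p = 0.943) and in Multi-target mice (-0.51, adjusted p = 0.489), and no arm passed. Ctsl, the protease cathepsin L that cleaves synaptopodin, differed by -0.08 ± 0.50 (SE) and Trpc6, a slit-associated calcium channel upstream of calcineurin, by 0.01 ± 0.15 (SE) between FK506 and Vehicle mice.

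Cd2ap, Actn4 and Magi2 complete the 8 on the cytoplasmic side, and each is made by other kidney cells as well. Cd2ap encodes an adaptor between nephrin and actin and lies on chromosome 17 (42792951 to 42876665, minus strand). It was at 12.82, 12.69 and 13.76 in Vehicle mice and at 12.68, 12.64 and 12.68 in Healthy mice, so the Vehicle mean rested on mouse 36. The Vehicle minus Healthy difference was 0.43 ± 0.23 (SE; limma adjusted p = 0.181), and 0.09 without that mouse. Vehicle mouse 36 also had the highest macrophage list mean of the 18 libraries, 11.48, and the part of that in the Cd2ap value was not tested. In the 12 drug-treated mice Cd2ap lay between 12.60 and 13.23.

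Actn4 encodes alpha-actinin-4, which crosslinks actin, and lies on chromosome 7 (28893248 to 28962340, minus strand). It ranged from 14.02 to 14.47 over all 18 mice, and its 5 differences from Healthy mice lay between -0.02 and 0.13. Exons of Capn12 on the opposite strand cover 5.2% of its exon bases. Magi2 encodes a scaffold that holds nephrin and lies on chromosome 5 (19227036 to 20704792, plus strand). It was at 8.80, 8.54 and 8.30 in Vehicle mice and at 8.90, 8.69 and 8.65 in Healthy mice, and its differences from Healthy mice lay between -0.20 and 0.14. Neither gene passed in any comparison, and the 95% interval of Vehicle minus Healthy was -0.29 to 0.25 for Actn4 and -0.59 to 0.19 for Magi2. The Magi2 difference of 0.14 in Prednisone mice was -0.12 after quantile normalization, and the Actn4 differences of Multi-target, Prednisone and Vehicle mice from Healthy mice changed sign under one of the rescalings.

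Further genes of the podocyte were counted by list, and Vehicle mouse 36 stood apart in several lists. Its mean over the injury list was 10.68, against 9.63 and 9.77 in Vehicle mice 7 and 17. Over the adhesion list it was 12.81, against 12.33 and 12.31, and over the actin list 12.41, against 11.92 and 12.07. Each count in Vehicle minus Healthy was therefore repeated without that mouse, where limma called 9.91% of all genes, against 22.4% with it. Of the 17 other podocyte markers, 3 passed as higher in Vehicle than in Healthy mice and none as lower, against 15.7% of all genes called higher, among them Tdrd5 (0.62; limma adjusted p = 0.00797) and Kirrel (1.00; limma adjusted p = 0.0285), which encodes the nephrin relative Neph1. The list median was 0.24, against 0.09 over all genes. Without Vehicle mouse 36 there were 2 higher, Tdrd5 (0.78) among them, and Kirrel was at 0.71 with an adjusted p of 0.160. In Prednisone minus Healthy 6 of the 17 were higher, against 13.4% of all genes, among them Kirrel (0.94) and Tdrd5 (0.74), with a median of 0.51, against 0.13. In Multi-target minus Healthy 3 were higher, against 5.33% of all genes, among them Tdrd5 (0.89), with a median of 0.38, against 0.08. In MMF minus Healthy limma called 15.9% of all genes. There Tdrd5 was higher (0.72) and Tcf21 lower (-1.02; limma adjusted p = 0.0269), the latter named after its values were seen. In FK506 minus Healthy, with 7.27% of all genes called, Tdrd5 was higher (0.50; limma adjusted p = 0.0496). None of the 17 passed against Vehicle mice in any drug arm.

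Of 19 slit diaphragm partners, 5 were higher and 1 lower in Vehicle than in Healthy mice, against the 22.4% of all genes called there. The higher ones included Fyn (0.80), the kinase that phosphorylates nephrin, Fat1 (0.98), a giant cadherin of the slit, and Iqgap1 (0.52), a scaffold. The lower one was Pard3 (-0.42), a polarity protein. Without Vehicle mouse 36 there were 3 higher and 1 lower, with Fyn at 0.75, Fat1 at 0.66 and Pard3 at -0.38 called and Iqgap1 (0.30) not. Fyn and Iqgap1 are also made by leukocytes, whose markers rose in Vehicle mice, and the part of that was not tested. Pard3 was lower in Multi-target (-0.36), Prednisone (-0.32) and MMF mice (-0.29; limma adjusted p = 0.0488) as well, relative to the same Healthy mice. Among 17 genes of foot process actin 4 were higher in Vehicle mice and none lower, against 15.7% of all genes called higher, with Inf2 (1.00), a formin, Myh9 (0.84), non-muscle myosin, and Arhgdia (0.48), an inhibitor of small GTPases, among them. Their median was 0.25, against 0.09 over all genes, and without Vehicle mouse 36 none was called.

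Of 15 basement membrane and adhesion genes, 1 was higher in Vehicle mice, the integrin gene Itga3 (0.73), and 1 lower, the collagen gene Col4a4 (-0.59), against the 22.4% of all genes called. Without Vehicle mouse 36 neither passed, and the list mean was 0.10 above Healthy mice instead of 0.26. In MMF minus Vehicle 1 of these was called, the linker gene Nid1 (-1.20; limma adjusted p = 0.0486), named after its values were seen. Of 9 podocyte transcription factor genes, 2 were higher in Vehicle than in Healthy mice and none lower, against 15.7% of all genes called higher. Among them was Klf6, a zinc finger transcription factor of podocytes and other cells (1.73; limma adjusted p = 0.0271). Without Vehicle mouse 36 none of the 9 was called, and Klf6 was at 1.04 with an adjusted p of 0.147. A list of 11 podocyte injury genes had 6 higher and none lower in Vehicle mice, against 15.7% of all genes called higher, with a median of 0.93, including the filament genes Nes (1.53) and Vim (2.16), Notch1 (0.59), Itgb3 (1.26) and Snai1 (1.06). Without Vehicle mouse 36 the called genes were 3, Nes (1.21), Vim (1.61) and Notch1 (0.55), with a list median of 0.62. Several of these genes are made by many other cell types of an inflamed kidney.

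To set the 8 genes against podocyte content, each was expressed relative to the mean of the 17 other podocyte markers in the same mouse. That mean was 9.80 ± 0.14 in Multi-target, 9.87 ± 0.17 in Prednisone, 9.61 ± 0.10 in FK506, 9.58 ± 0.11 in MMF, 9.70 ± 0.12 in Vehicle and 9.40 ± 0.03 in Healthy mice (SD, n = 3 each). The mean of the markers was thus itself 0.29 higher in Vehicle than in Healthy mice, which enters every relative value. The relative values are given as a description, with no test. On this measure Vehicle and Healthy mice did not overlap for 51.8% of all genes, 40.8% lower and 11% higher in Vehicle mice, and for 4 of the 8. Relative Nphs1 was 1.44 ± 0.11 in Multi-target, 1.32 ± 0.04 in Prednisone and 1.27 ± 0.05 in Healthy mice (SD, n = 3 each). Its difference from Healthy mice was thus 0.17 in Multi-target and 0.05 in Prednisone mice, against 0.56 and 0.51 as deposited, and Prednisone mice overlapped Healthy mice. Relative Ptpro was 0.80 ± 0.05 in Multi-target, 1.01 ± 0.22 in Prednisone, 0.82 ± 0.10 in Vehicle and 0.62 ± 0.10 in Healthy mice (SD, n = 3 each). Its difference from Healthy mice was 0.18 in Multi-target, 0.39 in Prednisone and 0.20 in Vehicle mice, against 0.58, 0.85 and 0.49 as deposited.

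Relative Magi2 was -1.15 ± 0.23 in Vehicle and -0.66 ± 0.16 in Healthy mice, and relative Actn4 was 4.48 ± 0.09 in Vehicle and 4.79 ± 0.07 in Healthy mice (SD, n = 3 each). As deposited the Vehicle minus Healthy difference was -0.20 for Magi2 and -0.02 for Actn4.

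Relative Wt1 was -0.81 ± 0.16 in Vehicle mice, with a highest value of -0.70, and -0.56 ± 0.09 in Healthy mice. It was -0.36 ± 0.33 in Multi-target, -0.39 ± 0.23 in Prednisone, -0.22 ± 0.30 in FK506 and -0.03 ± 0.49 in MMF mice (SD, n = 3 each). All Prednisone, FK506 and MMF mice were above all Vehicle mice on this measure, as 0.459%, 15.3% and 12% of all genes were, and Multi-target mouse 39, at -0.71, overlapped them. Relative Podxl was 4.08 ± 0.15 in Multi-target, 4.10 ± 0.13 in Prednisone, 4.15 ± 0.16 in FK506 and 4.14 ± 0.34 in MMF mice. It was 3.78 ± 0.22 in Vehicle and 3.90 ± 0.04 in Healthy mice (SD, n = 3 each). Prednisone and FK506 mice lay above all Vehicle mice, as 0.459% and 15.3% of all genes did, and Multi-target and MMF mice overlapped them. Relative Synpo stayed between -1.23 and -0.70 in all 18 mice, and each group's range overlapped that of the Vehicle mice. It lay at -1.20 to -0.95 in FK506 and at -1.23 to -0.95 in MMF mice, below the -0.92 to -0.83 of Healthy mice, as 33.6% and 27.2% of all genes did.

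**Figure D3:**
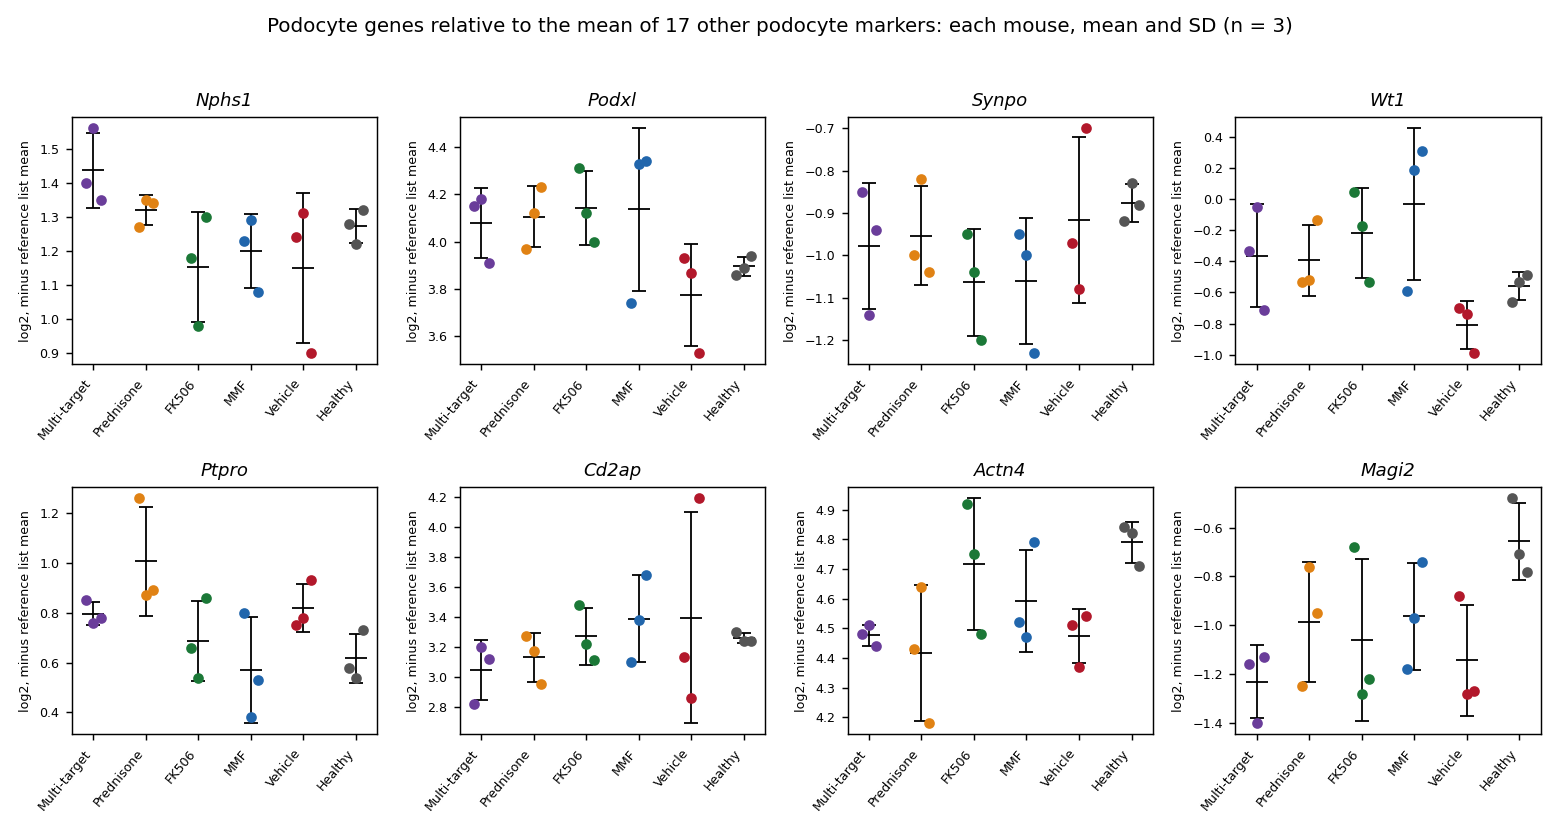
Log2 value of each podocyte gene minus the mean of 17 other podocyte markers in the same mouse (vertical axis, scaled per gene), for each mouse (points) with group mean and SD (bars, n = 3) by group (horizontal axis). Wt1 in Vehicle mice lies at or below -0.70, and Nphs1 averages 1.44 in Multi-target and 1.27 in Healthy mice.

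Pairs of the 8 genes varied together to different degrees across mice. Over the 15 MRL/lpr mice all 28 pairs of the genes were correlated, with 100000 permutations and Benjamini-Hochberg adjustment over the 28. The permutations shuffled mice freely across groups, so differences between groups that 2 genes share can by themselves give a small p. Podxl and Wt1 went together, with Pearson r = 0.89 (permutation p = 1e-05, the smallest these permutations can give; adjusted 0.00028) and a Spearman correlation of 0.91 (permutation p = 1e-05; adjusted 0.00028). Without the 2 mice farthest from the median of Podxl r was 0.86, and for deviations from the group means it was 0.94. Synpo and Ptpro had r = 0.72 (permutation p = 0.00269; adjusted 0.0377) and a Spearman correlation of 0.84 (permutation p = 0.00026; adjusted 0.00364), with r = 0.63 without the 2 farthest mice. For deviations from group means their r was 0.32, so that relation lay mostly between groups. Nphs1 and Ptpro had r = 0.67 (permutation p = 0.00546; adjusted 0.0382) and a Spearman correlation of 0.71 (permutation p = 0.00389; adjusted 0.0363), with 0.75 without the 2 farthest mice and 0.36 for deviations. Podxl and Magi2 had r = 0.68 (permutation p = 0.00455; adjusted 0.0382) and a Spearman correlation of 0.57 (permutation p = 0.0307; adjusted 0.146), with 0.50 without the 2 farthest mice and 0.69 for deviations. Nphs1 and Podxl had r = 0.65 (permutation p = 0.00737; adjusted 0.0413) and a Spearman correlation of 0.60 (permutation p = 0.0211; adjusted 0.146), with 0.43 without the 2 farthest mice and 0.66 for deviations. Wt1 and Ptpro had r = -0.08 (permutation p = 0.773; adjusted 0.904) and a Spearman correlation of -0.14 (permutation p = 0.611; adjusted 0.769).

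The genes whose values were most like each member over the 18 libraries were taken by Pearson r, as a description without a test. For Wt1 these were Hif3a (0.961), Myzap (0.948) and Itfg2 (0.945), and for Podxl Adcy1 (0.928), Shisa3 (0.917) and Acer2 (0.899). For Ptpro they were Cd55 (0.872), Aplp1 (0.852) and Tmem150c (0.834), for Synpo Map1a (0.860), Acpp (0.807) and Cmklr1 (0.784), and for Nphs1 Lpin2 (0.819), Slc4a9 (0.797) and Ceacam19 (0.782). For Cd2ap they were led by Chaf1b (0.967), for Magi2 by Tulp4 (0.824) and for Actn4 by Diap1 (0.792). Cd2ap stood at 13.76 in Vehicle mouse 36 and at 13.23 or less in every other mouse. Its r can therefore rest largely on that mouse, and none was computed without it. None of the 3 genes most like Wt1 or Podxl was on the podocyte lists. Hif3a, a hypoxia-inducible factor subunit, spanned 7.81 to 10.97 in Multi-target, 8.75 to 11.34 in Prednisone, 7.85 to 10.48 in FK506, 7.64 to 11.18 in MMF, 7.17 to 8.53 in Vehicle and 6.72 to 7.0 in Healthy mice. The mice low in Wt1 in each drug arm, Multi-target 39, Prednisone 29, FK506 24 and MMF 1, were also the lowest of their arm in Hif3a.

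**Figure D4:**
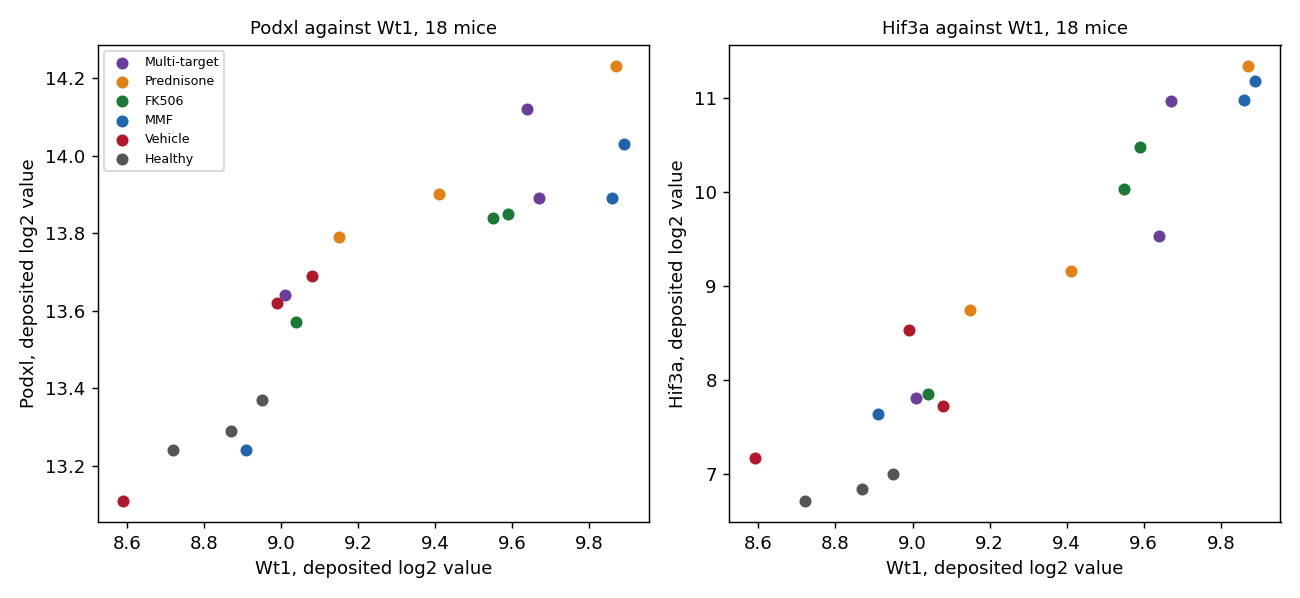
Deposited log2 values of Podxl (left, vertical axis) and Hif3a (right, vertical axis) against Wt1 (horizontal axes) in the 18 mice, coloured by group. Both are higher where Wt1 is higher, with r of 0.961 for Hif3a over the 18 mice and 0.89 for Podxl over the 15 MRL/lpr mice.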

How the data were processed

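Kidney cortex RNA from 18 mice in 6 groups of 3 was sequenced. Per the labels' protocols, RNA was column-purified from frozen kidney, and 1 ug went into each library. The authors deposited log2 expression values by gene symbol, 15035 genes per library in the same order. The submitters' processing notes name limma and mm10, with no version or role, while aligner, annotation and strand use are not given in the sources at hand. In 23 rows a spreadsheet had turned the symbol into a date, and these are tested but not named.

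From the values, 2 to the power of the deposited log2 value was a whole number of reads (within 0.01) times 1 factor per library for 76.5% to 77.2% of genes. Nphs1, Podxl, Wt1, Cd2ap and Actn4 were whole in all 18 libraries. Synpo, with 2 curated RefSeq transcripts, was whole after squaring (median distance 3.6e-05 reads), as a mean of log2 values over 2 transcripts would be. Magi2, with 3, came nearest after cubing (0.016), which is above that tolerance, and Ptpro, with 4, was not resolved, whereas Actn4, with 4, was whole as it stood. How genes with several transcripts were summarised is therefore not settled. Among genes with 1 curated transcript 98.5% were whole, and with 2, 52.9%. If transcripts were averaged, a shift between them could change the deposited values of Synpo, Magi2 and Ptpro without a change in total reads.

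The log2 values, unfiltered and without pseudocount, were fitted with 6 group means over all 18 libraries in limma 3.58.1 under R 4.3.3, the prior variance trended on mean level. There were 16 comparisons, each adjusted over all 15035 genes (Benjamini-Hochberg, 0.05, two-sided), and the code was tested on simulated data. Permutation tests were two-sided. With 3 mice a group the spread between mice, not counting error, limits precision. The 8 genes, the lists and the comparisons were chosen with earlier results of these data known. All 8 genes are named, and a few list results are not reported here. From each list the text gives counts and names up to 5 genes with the smallest p in Vehicle minus Healthy, plus calcineurin subunits, Rcan1, Ctsl and Trpc6. The 3 genes most like a member exclude numbered gene models. Locations are from GENCODE M21 and the promoter is from RefSeq, whose table held 5 of the 8 genes. Alternatives were a filter on the lowest 25% of genes, quantile normalization, median centring, a pseudocount of 1, fitting only the groups compared, no prior trend, array weights, and leaving out libraries.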

Additional observations from a re-analysis of the deposited data

How the results depend on the processing

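Of the calls on the 8 genes, Ptpro in Prednisone minus Healthy held in all 14 alternatives that bear on that comparison. The number of the 8 genes called against Healthy mice changed with scaling: quantile normalization gave 0 for Multi-target, 2 for Prednisone and 0 for Vehicle mice, and centring gave 0 for Multi-target, 1 for Prednisone and 0 for Vehicle mice, against 2 for Multi-target, 3 for Prednisone and 1 for Vehicle as deposited. Fitting only the groups compared gave 3 for Multi-target, 5 for Prednisone and 2 for FK506 mice. Array weights, whose estimation did not fully converge, gave 6 for Multi-target, 5 for Prednisone, 6 for FK506, 3 for MMF and 3 for Vehicle mice against Healthy, 4 for Multi-target and 2 for MMF mice against Vehicle, 1 for the mean of the drug arms against Vehicle, and 4 for Multi-target minus MMF, 5 for Multi-target minus FK506 and 2 for Prednisone minus MMF. Without both libraries with other-tissue transcripts there was 1 for Multi-target, 2 for Prednisone and 0 for Vehicle mice against Healthy. The list counts without Vehicle mouse 36, given with the lists, were chosen after seeing the data. Leaving out 1 mouse at a time gave 0 to 2 for Multi-target, 1 to 3 for Prednisone, 0 to 2 for MMF and 0 to 1 for Vehicle mice against Healthy, 0 to 2 for MMF against Vehicle, and 0 to 1 for Multi-target minus MMF, for Prednisone minus MMF and for the mean of the drug arms against Vehicle. The cause of these changes was not tested, and a fit with 1 mouse fewer has less power by construction. The share of all genes called under each of these settings is not given here. These counts therefore do not show whether the 8 genes moved more or less than other genes. The low-value filter, the pseudocount and the fit without a prior trend moved no call. No called difference changed sign. No paired analysis was possible because mouse numbers name single mice and the groups compared share fewer than 2 of them. Where an arm kept 2 mice, the pooled spread of all groups was used. Synpo and Magi2 stand lowest of the 8, at read equivalents of 214 and 244 at the lowest.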

Other observations

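Some further values concern genes chosen after their values were seen. Over the 15 MRL/lpr mice Wt1 correlated with Fkbp5, a co-chaperone of the glucocorticoid receptor, at Pearson r = 0.89, and Podxl correlated with Fkbp5 at 0.74 and with Hif3a at 0.81, as descriptions without a test. Fkbp5 was at 14.72 and 14.06 in MMF mice 14 and 27 and at 13.27 in MMF mouse 1, the same split as for Wt1 in that arm. Kirrel2 encodes a relative of nephrin and, by the GENCODE bounds, starts 624 bases from the start of Nphs1 on the opposite strand of chromosome 7. The distance depends on the annotation. The RefSeq window before the Nphs1 start ended at 30460057, whereas the GENCODE start is 30458315. Kirrel2 passed in neither comparison in which Nphs1 did. Kirrel2 differed by 0.43 ± 0.24 (SE; limma adjusted p = 0.276) between Multi-target and Healthy mice and by 0.14 ± 0.24 (SE; limma adjusted p = 0.704) between Prednisone and Healthy mice. Over the 15 MRL/lpr mice Nphs1 and Kirrel2 correlated at Pearson r = 0.50.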
